A study of Mus musculus with 6 samples.

Results

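The genes described here are the 10 members of the carnitine shuttle and of long-chain fatty acid oxidation named Cpt1a, Cpt1b, Cpt2, Slc25a20, Acsl1, Acadvl, Acadl, Decr1, Eci1 and Eci2. They were chosen by name as the rows of the expression table that carry these symbols, and all 10 were found among 30914 genes. The table holds RNA-seq of hearts from male wild-type C57BL/6J mice that were 8 weeks old when obtained, before the infusion. All 6 mice received angiotensin II (Ang II), a pressor peptide that enlarges the heart, at 1 μg/kg/min for 4 weeks from an implanted osmotic pump. The 3 mice of the Ang II + Tec group were also given tectochrysin (Tec), a plant flavonoid, at 5 mg/kg during the last 2 weeks, and the 3 mice of the Ang II group were not. Mice without Ang II were not analysed here, so every value belongs to an Ang II-treated heart and no change caused by Ang II itself could be measured.

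Long-chain fatty acids are the main fuel of the adult heart. They are first joined to coenzyme A at the outer mitochondrial membrane, passed to carnitine by carnitine palmitoyltransferase 1, carried across the inner membrane by the carnitine-acylcarnitine translocase, and handed back to coenzyme A by carnitine palmitoyltransferase 2. Beta-oxidation then shortens the chain, starting with an acyl-CoA dehydrogenase, while fatty acids with double bonds also need a reductase and isomerases. Many of these genes are known targets of the nuclear receptor PPARα and its coactivators.

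The libraries differed in their tissue content before any comparison of the groups. Myl7, which encodes the atrial myosin light chain, was at 419, 332 and 0 FPKM (fragments relative to transcript length and to all mapped fragments) in Ang II replicates 1 to 3 and at 0, 1040 and 1.58 FPKM in Ang II + Tec replicates 1 to 3. The summed atrial markers lay between 636 and 1544 FPKM in Ang II replicates 1 and 2 and Ang II + Tec replicate 2, and between 0.29 and 2.62 FPKM in the other libraries. The fibroblast markers summed to 552, 697 and 123 FPKM in the Ang II group, against 105, 175 and 117 FPKM in the Ang II + Tec group, and the macrophage markers to 31.0, 41.2 and 20.5 FPKM against 16.3, 17.0 and 17 FPKM. The adipocyte markers were highest in Ang II + Tec replicate 2, at a sum of 80.5 FPKM. Of the brown adipocyte markers, Ucp1 stood at 18.29 FPKM there against 0 to 0.62 FPKM in the other libraries, and Cidea at 34.33 against 12.96 to 18.74 FPKM. Elovl3, of the same list, was at 0 FPKM there and at 0 to 0.03 FPKM elsewhere. The cardiomyocyte markers, which check the labelled tissue, were abundant in all 6 libraries and summed to 4018 FPKM in the lowest and 5795 FPKM in the highest. Mitochondrially encoded transcripts took 40.1 to 48.9% of all FPKM in the Ang II group and 49.6 to 52.5% in the Ang II + Tec group.

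The members covered a wide range of levels, which FPKM allows to be compared between genes because it is a level per length. Averaged over the 6 libraries, the order ran from Acadl at 292 FPKM and Acadvl at 192 FPKM through Cpt1b at 97.0, Eci1 at 77.7, Decr1 at 57.9, Acsl1 at 50.5, Cpt2 at 48.1, Slc25a20 at 22.0 and Eci2 at 20.2 to Cpt1a at 4.54 FPKM. Each gene stood above the next in all 6 libraries, except that Acsl1 exceeded Cpt2 in 4 of 6 and Slc25a20 exceeded Eci2 in 5 of 6. Over the libraries the ranges of neighbours were separate only for Acadl above Acadvl, Acadvl above Cpt1b, Cpt2 above Slc25a20 and Eci2 above Cpt1a, and the other neighbours overlapped. Within a library the most abundant member, Acadl, was 52.7 to 78.6 times the level of the least abundant, Cpt1a.

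**Figure D1:**
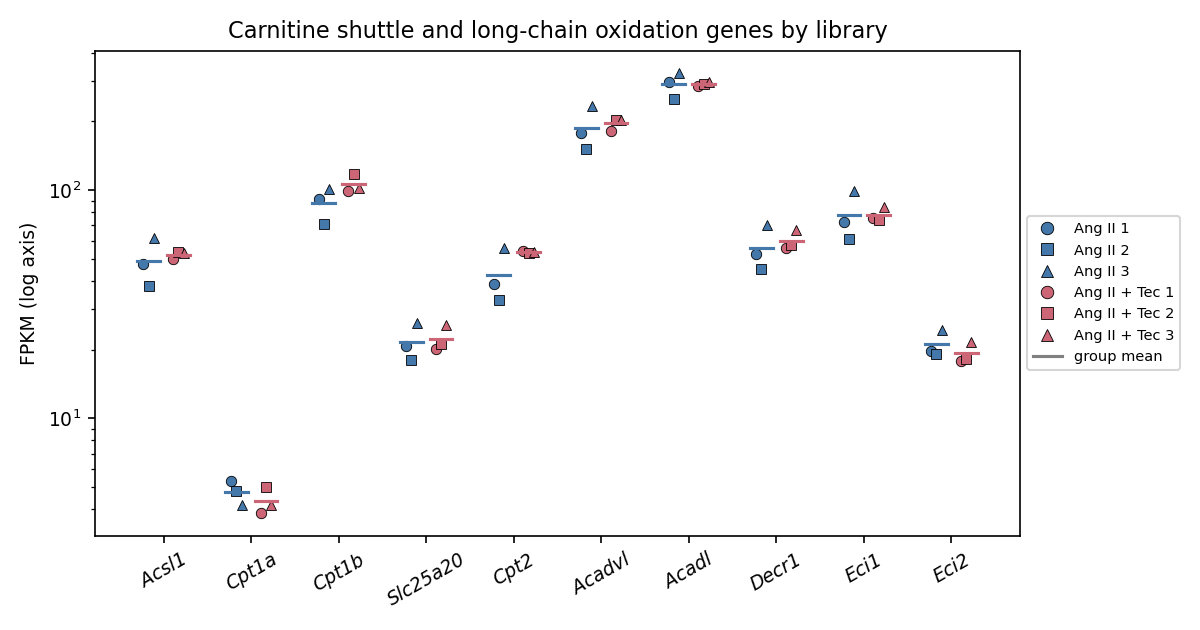
FPKM of the 10 members in each of the 6 libraries on a log axis, with 1 point per library coloured by group and a bar at each group mean, ordered by role from acyl-CoA synthesis to the isomerases. The members span from about 4.54 FPKM for Cpt1a to 292 FPKM for Acadl, and for every member the ranges of both groups overlap.

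Acsl1, the main acyl-CoA synthetase of the heart, activates fatty acids for entry (ENSMUSG00000018796, chromosome 8, 46471037 to 46536051 on GRCm38). Its levels were 47.6, 37.91 and 61.42 FPKM in the Ang II group, against 49.77, 53.44 and 52.85 FPKM in the Ang II + Tec group. The lowest and the highest library both belonged to the Ang II group, and the Ang II + Tec libraries lay between them. The means were 48.98 ± 11.8 and 52.02 ± 1.97 FPKM (SD, n = 3 each). The log2 fold change was 0.11 (SE 0.18, limma adjusted p = 0.710, n = 3 each).

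The carnitine palmitoyltransferase 1 step is encoded by a muscle form, Cpt1b, and a form known from liver, Cpt1a, and both are inhibited by malonyl-CoA. Cpt1b (ENSMUSG00000078937, chromosome 15, 89416405 to 89425863) measured 91.9, 70.97 and 100.82 FPKM in the Ang II group, against 98.88, 117.28 and 101.89 FPKM in the Ang II + Tec group. Its highest library was Ang II + Tec replicate 2, and Ang II replicate 3 lay inside the range of the Tec-treated hearts. The log2 fold change was 0.28 (SE 0.16, limma adjusted p = 0.344, n = 3 each). The same-strand gene Gm44502 overlaps Cpt1b and was listed at 2.64 to 8.43 FPKM, and how reads shared by the pair were divided is not given in the sources used here.

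Cpt1a (ENSMUSG00000024900, chromosome 19, 3322334 to 3385733) was the least abundant member, at 5.32, 4.78 and 4.16 FPKM in the Ang II group, against 3.82, 5.0 and 4.17 FPKM in the Ang II + Tec group. The groups overlapped, and the log2 fold change was -0.11 (SE 0.14, limma adjusted p = 0.628, n = 3 each). Its highest library was Ang II replicate 1 and its lowest Ang II + Tec replicate 1, a pattern that no other member had. The fold difference of Cpt1b over Cpt1a was 17.3, 14.8 and 24.2 in the Ang II group, against 25.9, 23.5 and 24.4 in the Ang II + Tec group. Put as a share, Cpt1b made up 94.8 ± 1.19% of the FPKM of the Cpt1a and Cpt1b pair in the Ang II group against 96.1 ± 0.185% in the Ang II + Tec group (SD, n = 3 each). The difference of 1.33 percentage points gave a two-sided exact permutation p of 0.2, where 3 against 3 libraries cannot go below 0.1. Leaving out 1 library moved this difference between 0.80 points, without Ang II replicate 2, and 1.98 points, without Ang II replicate 3. Cpt1a itself was at 4.78 to 5.32 FPKM in Ang II replicates 1 and 2 and Ang II + Tec replicate 2, the libraries with high atrial markers. In the other libraries it was at 3.82 to 4.17 FPKM. This split was picked out after the values were seen, and its part in the share was not tested.

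Slc25a20, the carnitine-acylcarnitine translocase (ENSMUSG00000032602, chromosome 9, 108662088 to 108684641), measured 20.74, 17.93 and 26.07 FPKM in the Ang II group, against 20.19, 21.11 and 25.71 FPKM in the Ang II + Tec group. The range of the Tec-treated hearts lay inside that of the Ang II group, and the log2 fold change was 0.06 (SE 0.17, limma adjusted p = 0.850, n = 3 each). Cpt2, which ends the shuttle on the inner membrane (ENSMUSG00000028607, chromosome 4, 107903981 to 107923610), measured 38.64, 32.91 and 55.89 FPKM in the Ang II group, against 54.29, 53.03 and 53.62 FPKM in the Ang II + Tec group. The Ang II + Tec libraries were nearly equal, with a coefficient of variation (CV, the SD as a percentage of the mean) of 1.18%, whereas the Ang II libraries had a CV of 28.2% and ran from below to above them. The log2 fold change of Cpt2 was 0.36 (SE 0.19, limma adjusted p = 0.322, n = 3 each), the largest of the 10 members.

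The promoters of 3 members are shown because they hold matches to the binding letters of the nuclear receptors that PPARα belongs to. RefSeq promoters of 300 bases (GRCm38.p6, 250 bases before to 50 after the start) were matched for 8 of the 10 members, and Cpt1b and Decr1 were not matched. The motif AGGTCA was searched on both strands with no mismatch, and a direct repeat of 2 copies of AGGTCA with 1 base between them was searched with at most 2 mismatches, so the searches can overlap. AGGTCA was found for Acadvl and Cpt1a and is present in 16.3% of 32851 promoters. The direct repeat was found for Slc25a20 and is present in 3.86% of them. That match lies at positions 7 to 19 after the start and has 2 mismatches, 1 in each copy, so neither copy is a full AGGTCA. The Cpt1a and Slc25a20 stretches lie inside the gene coordinates given above, as the RefSeq starts used here are further along the gene. The match is in capitals, 5′ to 3′ on the gene's strand, and the Cpt1a match is on the opposite strand.
Acadvl chr11:70015463-70015562 minus strand: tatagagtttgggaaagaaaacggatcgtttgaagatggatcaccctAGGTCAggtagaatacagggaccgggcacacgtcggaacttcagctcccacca
Cpt1a chr19:3323160-3323259 plus strand: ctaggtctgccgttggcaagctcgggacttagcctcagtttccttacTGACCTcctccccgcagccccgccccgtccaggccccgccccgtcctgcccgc
Slc25a20 chr9:108662134-108662163 plus strand: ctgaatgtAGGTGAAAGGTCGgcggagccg
A match of letters does not show that a factor binds there, and none of these 3 genes was called in the comparison of the groups.

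Beta-oxidation of long chains starts with Acadvl, the very long-chain acyl-CoA dehydrogenase (ENSMUSG00000018574, chromosome 11, 70010183 to 70015411). Acadvl measured 178.2, 151.7 and 234.59 FPKM in the Ang II group, against 181.85, 203.07 and 203.6 FPKM in the Ang II + Tec group. The Ang II libraries lay both below and above the Ang II + Tec libraries, and the log2 fold change was 0.08 (SE 0.17, limma adjusted p = 0.787, n = 3 each). The gene Dvl2, on the opposite strand and overlapping Acadvl, was listed at 0.94 to 2.23 FPKM.

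Acadl, the long-chain acyl-CoA dehydrogenase (ENSMUSG00000026003, chromosome 1, 66830839 to 66863277), measured 297.64, 251.75 and 327.06 FPKM in the Ang II group, against 286.82, 291.54 and 299.18 FPKM in the Ang II + Tec group. The means of 292 ± 38.0 and 293 ± 6.24 FPKM (SD, n = 3 each) were nearly equal, and the log2 fold change was 0.0099 with a 95% interval of -0.29 to 0.31 (limma adjusted p = 0.967, n = 3 each). This interval is centred near 0, as close as any member came to no difference. A same-strand processed pseudogene, Gm15793, overlaps Acadl and was listed at 0.12 to 0.41 FPKM. The level of Acadl was 1.39 to 1.67 times that of Acadvl in every library.

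Decr1, the dienoyl-CoA reductase that removes double bonds at even positions (ENSMUSG00000028223, chromosome 4, 15917240 to 15945507), measured 52.23, 45.31 and 70.46 FPKM in the Ang II group, against 55.53, 57.61 and 66.55 FPKM in the Ang II + Tec group, with overlapping ranges. Eci1, an enoyl-CoA isomerase that moves double bonds into the position beta-oxidation needs (ENSMUSG00000024132, chromosome 17, 24426641 to 24439348), measured 72.13, 60.86 and 99.55 FPKM against 75.29, 73.65 and 84.66 FPKM. For both genes the highest and the lowest library belonged to the Ang II group, and the log2 fold changes were 0.12 for Decr1 (SE 0.18, limma adjusted p = 0.702) and 0.034 for Eci1 (SE 0.19, limma adjusted p = 0.922). Eci2, an isomerase found in peroxisomes and mitochondria (ENSMUSG00000021417, chromosome 13, 34977748 to 35027096), measured 19.76, 19.11 and 24.45 FPKM in the Ang II group, against 17.89, 18.24 and 21.53 FPKM in the Ang II + Tec group. Eci2 was, with Cpt1a, the member whose mean was lower after Tec, at a log2 fold change of -0.13 (SE 0.14, limma adjusted p = 0.590, n = 3 each), and the groups overlapped. Its antisense gene Gm16984 was listed at 0.18 to 0.35 FPKM, and whether the counting used strand is not given in the sources used here.

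Set together, none of the 10 members was called, where a call is an adjusted p under 0.05 together with a log2 fold change of 1 or more in either direction, against 0.160% of the 13089 genes tested. None had an unadjusted p under 0.05, against 18.6% of all genes, and none had groups that did not overlap, against 21.8%. By limma the 95% intervals of the members lay between -0.45 and 0.81 on the log2 scale, which is 0.733-fold to 1.75-fold, so every interval held 0 and lay inside the fold of the call threshold, and differences within those bounds remain possible. On the log2 scale 8 of the 10 members had the higher mean in the Ang II + Tec group, whereas 20.0% of all genes did, and the median log2 fold change was 0.069 for the members and -0.17 for all genes.

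The direction of the members depended on the scaling. With median-of-ratios scaling, which moves the median of all genes to 0.009, all 10 members were higher, at a median of 0.31, against 51.8% of all genes. With each library scaled to a fixed FPKM total (TPM), 2 of the 10 members were higher, at a median of -0.10, against 9.08% of all genes. Quantile normalization gave 10 of 10 higher, against 53.9% of all genes, and centring on the cardiomyocyte markers gave 4 of 10, against 10.7%. Scaling to the summed FPKM without mitochondrially encoded transcripts gave 8 of 10 higher, at a median of 0.10, against 3035 of 13089 genes. Under none of these scalings was a member called.

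**Figure D2:**
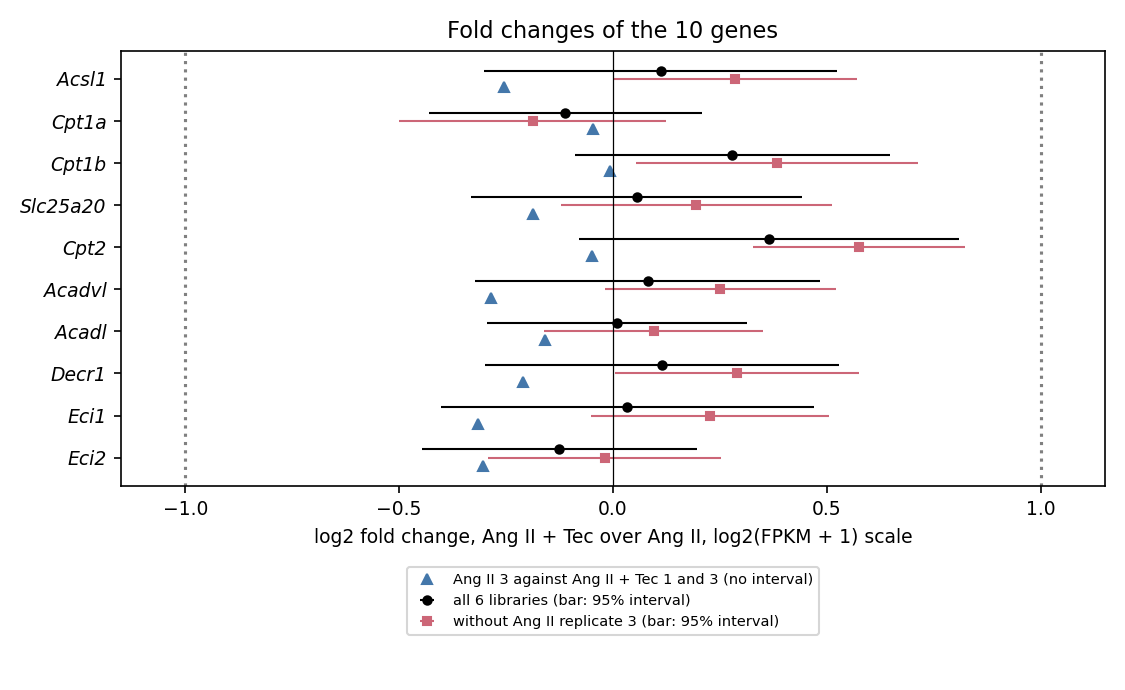
Log2 fold change (Ang II + Tec over Ang II) on log2(FPKM + 1) for each member, with 95% limma intervals from all 6 libraries (black) and without Ang II replicate 3 (red), and the difference between Ang II replicate 3 and Ang II + Tec replicates 1 and 3 (blue triangles, no interval). Dotted lines mark a log2 fold change of 1 in either direction. All 10 black intervals cross 0, and without Ang II replicate 3 the interval of Cpt2 runs from 0.33 to 0.82.

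The spread lay mainly within the Ang II group. For 9 of the 10 members the CV was larger in the Ang II group, where it ran from 12.2 to 28.2%, than in the Ang II + Tec group, where it ran from 1.18 to 14.0%, while 60.1% of all genes had the larger CV in the Ang II group. Cpt1a was the exception. Ang II replicate 3 was the highest library of all for 8 of the 10 members, not for Cpt1a and Cpt1b, against 7.37% of all genes, and Ang II replicate 2 was the lowest for 8 of the 10, not for Eci2 and Cpt1a, against 9.43% of all genes. Ang II replicates 1 and 2 were the 2 lowest libraries for 6 members, against 5.68% of all genes. The summed FPKM of the 10 members was 824, 693 and 1004 in the Ang II group, against 844, 894 and 914 in the Ang II + Tec group. Summed cardiomyocyte markers were 5067, 4018 and 5695 FPKM against 5795, 5326 and 5565 FPKM, so both sums were lowest in Ang II replicate 2, while the members peaked in Ang II replicate 3 and the markers in Ang II + Tec replicate 1. In bulk cardiac tissue, fewer cardiomyocytes and less of these transcripts per cardiomyocyte cannot be told apart.

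The members moved largely together over the 6 libraries. The Pearson correlation of a member with the mean of all 10 members is given as a description over 6 libraries. That mean includes the member itself, which raises the value. The correlation was 0.95 to 0.99 for Acsl1, Acadvl, Acadl, Decr1 and Eci1 and 0.93 for Slc25a20. It was lower for Cpt2 (0.82), Cpt1b (0.77) and Eci2 (0.69), and -0.31 for Cpt1a, and these points share the same libraries and tissue composition.

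**Figure D3:**
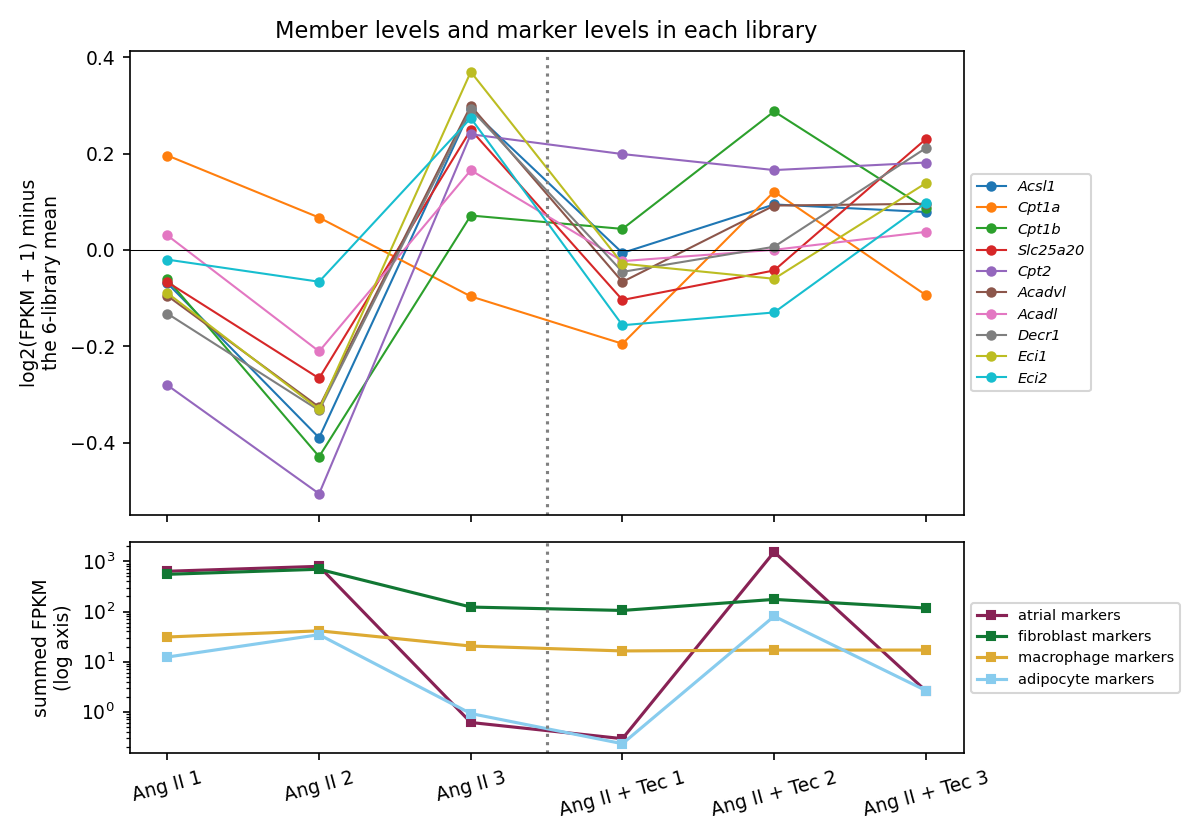
Top, log2(FPKM + 1) minus the gene's mean over the 6 libraries for each of the 10 members, with 1 line per gene. Bottom, the summed FPKM of the atrial, fibroblast, macrophage and adipocyte markers of the same libraries on a log axis. Most members are highest in Ang II replicate 3 and lowest in Ang II replicate 2, and the atrial markers are at 636 FPKM or above in Ang II replicates 1 and 2 and Ang II + Tec replicate 2.

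Without Ang II replicate 3, Cpt2 had a log2 fold change of 0.58 with a 95% interval of 0.33 to 0.82 (limma adjusted p = 0.0107, on 2 against 3 libraries), below the fold needed for a call. Under that choice 28.8% of all genes had an adjusted p under 0.05, and Cpt2 was the member that did. Cpt1b, Cpt2, Acsl1, Acadvl, Decr1 and Eci1, 6 of the 10, did not overlap and were higher after Tec. Of all genes 6.84% did so, and 60.5% did not overlap in either direction. These 6 members are those already given as having their lowest values in Ang II replicates 1 and 2. Without Ang II replicate 2 instead, the log2 fold change of Cpt2 was 0.20 (limma adjusted p = 0.711). In that fit 2 of the 10 members were higher, against 22.8% of all genes, and the member median was -0.062, while leaving out any other single library kept it between 0.016 and 0.24.

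The libraries that held atrial transcripts (Myl7 above 100 FPKM) were Ang II replicates 1 and 2 and Ang II + Tec replicate 2, and the others were Ang II replicate 3 and Ang II + Tec replicates 1 and 3. These sets were defined from the data, and their differences are given as descriptions. Among libraries with atrial transcripts, 8 of the 10 members were higher in the Ang II + Tec library, with a median difference of 0.19 on the log2 scale, against 32.0% of all genes. Among libraries without them, all 10 members were lower in the Ang II + Tec libraries, with a median difference of -0.20, against 69.7% of all genes lower. The difference of Cpt2 was 0.56 in the first set and -0.05 in the second, that of Cpt1b was 0.53 and -0.0063, that of Acadvl was 0.30 and -0.28, and that of Acsl1 was 0.32 and -0.26. Cpt1a differed by -0.01 and -0.05 and Eci2 by -0.09 and -0.30, so these members were lower in both sets. The adipocyte markers were higher in every library with atrial transcripts than in any library without them. The fibroblast markers followed the atrial transcripts less closely. They summed to 552 and 697 FPKM in Ang II replicates 1 and 2 and to 175 FPKM in Ang II + Tec replicate 2. Libraries without atrial transcripts had 105 to 123 FPKM. The part of the atrial content, and of the fibroblast and fat markers, in the differences of the members was not tested.

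The other genes of the pathway and its regulation were grouped in 6 lists, 49 genes. None of the 49 was called, against 0.160% of all genes, and 6 had an unadjusted limma p under 0.05, against 18.6% of all genes. The median log2 fold change of the 49 was 0.041, with 30 of 49 higher after Tec, and it was -0.15, with 7 of 49 higher, in the 3 libraries without atrial transcripts. Of all genes 20.0% were higher, at a median of -0.17, and in those 3 libraries 3970 of 13089 were, at a median of -0.078. For the lists that follow, the share of all genes higher was 51.8% with median-of-ratios scaling and 9.08% with TPM scaling. In mitochondrial beta-oxidation, 13 of 14 genes had the higher mean of log2(FPKM + 1) after Tec, with a median of 0.27. With median-of-ratios scaling 14 of 14 did, at a median of 0.51, and with TPM scaling 9 of 14 did, at a median of 0.093. In the 3 libraries without atrial transcripts 3 of 14 did, at a median of -0.13. For Echs1 and Etfb, 2 of the 13, picked out after their values were seen, the mean FPKM itself was lower after Tec, at 30.31 against 30.55 and at 256.7 against 260.4. Acad11, an acyl-CoA dehydrogenase, measured 9.4, 8.62 and 10.63 FPKM in the Ang II group, against 11.87, 12.12 and 11.75 FPKM in the Ang II + Tec group, with no overlap, at a log2 fold change of 0.30 (SE 0.11, limma adjusted p = 0.244). Hadha, the alpha subunit of the trifunctional protein that follows the dehydrogenases, measured 56.01, 44.19 and 76.89 FPKM against 73.79, 78.52 and 79.99 FPKM, at a log2 fold change of 0.42 (SE 0.20, limma adjusted p = 0.290).

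In peroxisomal beta-oxidation 2 of 8 genes were higher and 6 lower, with a median of -0.10. With median-of-ratios scaling 5 were higher, at a median of 0.12, and with TPM scaling 1 was, at a median of -0.27. Decr2, the peroxisomal dienoyl-CoA reductase, measured 5.31, 6.08 and 4.12 FPKM in the Ang II group, against 2.54, 4.23 and 3.39 FPKM in the Ang II + Tec group, at a log2 fold change of -0.50 (SE 0.19, limma adjusted p = 0.240).

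Among the acyl-CoA synthetases and carnitine genes, 3 of 8 were higher and 5 lower, with a median of -0.18. With median-of-ratios scaling 4 were higher, and with TPM scaling 2 were. Acsl4, which prefers arachidonic acid, measured 3.09, 3.89 and 2.42 FPKM against 2.05, 2.38 and 1.96 FPKM, with no overlap, at a log2 fold change of -0.39 (SE 0.15, limma adjusted p = 0.254). Acsl5, another synthetase, measured 5.32, 7.47 and 3.43 FPKM against 2.9, 4.28 and 3.22 FPKM, at a log2 fold change of -0.48 (SE 0.24, limma adjusted p = 0.312). All 3 malonyl-CoA genes were higher, with a median of 0.15, and all 3 with median-of-ratios scaling, but 1 of 3 with TPM scaling. Acacb, which makes the malonyl-CoA that inhibits carnitine palmitoyltransferase 1, was at 14.31, 11.05 and 18.87 FPKM against 14.71, 18.63 and 15.85 FPKM, at a log2 fold change of 0.17 (limma adjusted p = 0.611), and Mlycd, which removes malonyl-CoA, was at 23.66, 19.49 and 32.97 FPKM against 28.5, 24.82 and 30.06 FPKM, at a log2 fold change of 0.15 (limma adjusted p = 0.638).

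Of the PPAR and PGC-1 regulators 4 of 8 were higher and 4 lower, with a median of 0.0095, and 7 were higher with median-of-ratios scaling but 2 with TPM scaling. Esrra, an estrogen-related receptor that acts with PGC-1 on oxidative genes, measured 34.15, 28.42 and 31.6 FPKM in the Ang II group, against 23.3, 26.4 and 25.21 FPKM in the Ang II + Tec group, with no overlap, at a log2 fold change of -0.32 (SE 0.12, limma adjusted p = 0.237). Ppargc1a, the coactivator PGC-1α, measured 10.97, 9.87 and 12.14 FPKM against 11.14, 15.53 and 12.72 FPKM, at a log2 fold change of 0.23 (limma adjusted p = 0.393). Of the targets of PPAR outside the pathway 5 of 8 were higher and 3 lower, with 7 higher under median-of-ratios scaling and 2 under TPM scaling. Cd36, a fatty acid transporter, measured 195.52, 187.64 and 270.73 FPKM against 266.53, 290.11 and 280.19 FPKM, at a log2 fold change of 0.37 (SE 0.16, limma adjusted p = 0.271), and Ucp3, an uncoupling protein, measured 7.75, 5.52 and 16.57 FPKM against 6.53, 5.64 and 7.87 FPKM, at a log2 fold change of -0.39 (SE 0.34, limma adjusted p = 0.502). Over all 49 genes, 7 had groups that did not overlap in either direction, a smaller share than the 21.8% of all genes tested. Of the 2848 genes behind that 21.8%, 380 were higher after Tec and the rest lower, so the combined share does not serve for each direction. The 7 included Acad11 and Etfa, which were higher, and Acsl4, Acad9, Esrra and Ppard, which were lower. Etfa, Acad9 and Ppard were picked out after their values were seen. Etfa had a log2 fold change of 0.29 (limma adjusted p = 0.301), Acad9 of -0.15 (limma adjusted p = 0.422) and Ppard of -0.11 (limma adjusted p = 0.541).

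**Figure D4:**
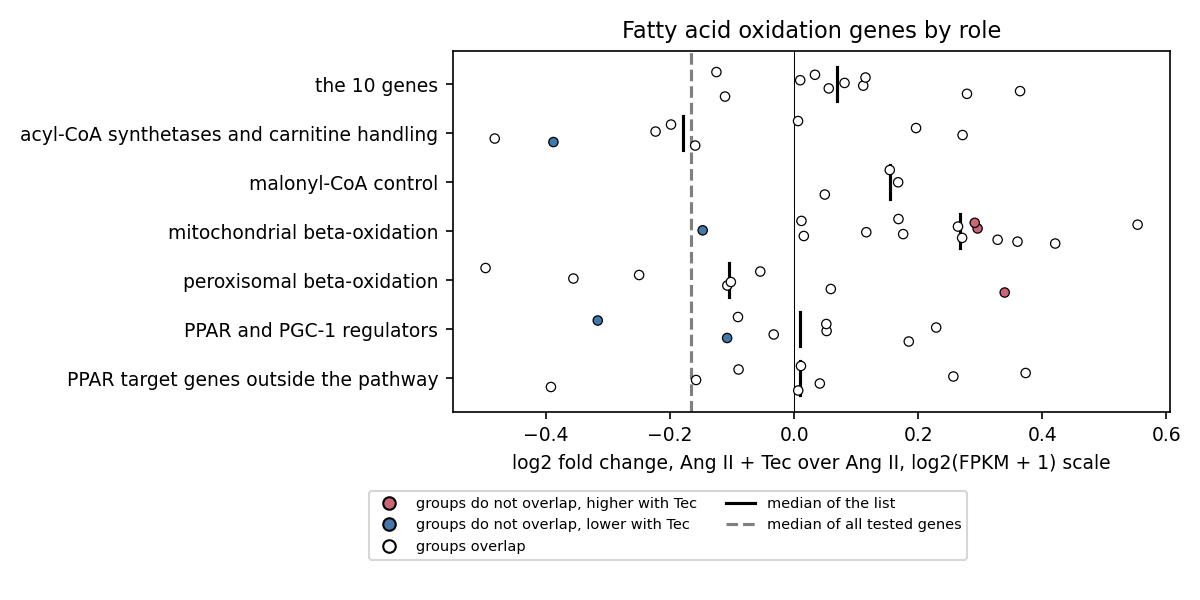
Log2 fold change (Ang II + Tec over Ang II) on log2(FPKM + 1) of the 10 members and of the 6 lists, 1 point per gene, with a bar at each median and points coloured where the groups do not overlap (red higher, blue lower). The dashed line is the median of all genes tested, -0.17. On the deposited scale the medians run from -0.18 for acyl-CoA synthetases and carnitine genes to 0.27 for mitochondrial beta-oxidation.

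The genes whose pattern over the 6 libraries was most like the mean of the members were Rnf114, Gm48882 and Gpr27, with Pearson r of 0.989, 0.988 and 0.984. These are likenesses over 6 libraries that share the same tissue composition, and carry no test.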

How the data were processed

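RNA was sequenced as paired-end poly(A) libraries from 6 hearts (3 per group) and trimmed with Cutadapt. The authors deposited FPKM per gene. The submitters' processing notes name Bowtie 0.12.2, HISAT2 2.0 and StringTie 1.3.0, without their roles, and the build mm8, but the coordinates of 90.6% of shared genes, and of all 10 members, equal those of GENCODE M21 (GRCm38). Whole reads could not be recovered from the low FPKM values, and the nominal depth stated in the paper cannot be set against FPKM, so the reads per library are unknown and no counting intervals were given. limma 3.58.1 (R 4.3.3, eBayes with trend) was run on log2(FPKM + 1) for 13089 genes that reached 0.5 FPKM in 3 or more libraries, with Benjamini-Hochberg adjustment. The fit was also run on simulated data with independent noise. The planted changes were larger than those of the members, so that run does not bear on differences of their size. Alternatives changed the pseudocount, filter, scaling, block, variance estimate and weights, used atrial transcripts, or left out each library. A gene was called at adjusted p under 0.05 and absolute log2 fold change of at least 1. On this scale the fold change of low genes is understated. Named genes beyond the members are the 2 of smallest p in each list, of which 1 is not reported here. The members, lists and tests were chosen with earlier results of these data known. Replicates are labelled as separate hearts. The limma p-values set the group difference against the spread between hearts. For each gene that spread is moderated toward a trend over all genes tested.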

Additional observations from a re-analysis of the deposited data

How the results depend on the processing

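None of the 10 members and none of the 49 other pathway genes was called in any of 21 alternatives (3 of them, those on atrial transcripts, chosen after seeing the data), where a call also needs a log2 fold change of 1 in size. By adjusted p under 0.05 alone, Cpt2 and 18 of the 49 genes passed without Ang II replicate 3 (3776 of 13089 genes did), and Cpt2 (adjusted p = 0.0365) and 14 of the 49 passed with array weights (3542 of 13089). Over all genes the number called, 21 in the fit reported, was 3 with no filter on low values, 11 with FPKM of at least 1 in all libraries, 522 with array weights (whose estimation did not converge), 13 with the atrial covariate, 47 in the 3 libraries with atrial transcripts and 0 by limma in the 3 without (1112 at an unadjusted p under 0.05; in both sets the lone library is assumed to vary like the others), and from 2 to 557 leaving out 1 library, with 557 without Ang II replicate 3. The members' median log2 fold change of 0.069 became 0.31 with median-of-ratios scaling, 0.29 with quantile normalization, 0.30 with array weights and -0.20 in libraries without atrial transcripts. The pathway median of 0.041 became 0.25, 0.25, 0.24 in libraries with atrial transcripts and -0.15 without them. Of the values that turned direction, Cpt1a became 0.089 and 0.098 with median-of-ratios and quantile scaling, and Eci2 became 0.11 with each and 0.042 with array weights. With TPM scaling Slc25a20 was -0.11, Acsl1 -0.061, Acadvl -0.094, Acadl -0.17, Decr1 -0.058, Eci1 -0.14 and Mlycd -0.015. Centred on cardiomyocyte markers, Slc25a20 was -0.039, Acadvl -0.014, Acadl -0.085 and Eci1 -0.061. With the atrial covariate, Slc25a20 was -0.031, Acadl -0.034 and Eci1 -0.082. Without atrial libraries Cpt1b was -0.0063, Cpt2 -0.050, Slc25a20 -0.19, Acsl1 -0.26, Acadvl -0.28, Acadl -0.16, Decr1 -0.21, Eci1 -0.31, Acacb -0.29, Mlycd -0.17, Hadha -0.0011 and Ppargc1a -0.026. Ucp3 was 0.085 with array weights. Leaving out 1 library, Slc25a20 ran from -0.063 to 0.19, Acsl1 from -0.056 to 0.29, Acadvl from -0.061 to 0.25, Acadl from -0.093 to 0.095, Decr1 from -0.023 to 0.29, Eci1 from -0.12 to 0.23, Acacb from -0.010 to 0.35, Mlycd from -0.012 to 0.35 and Ucp3 from -0.70 to 0.014. Whether the replicate numbers pair the samples could not be settled. The correlations of deviations were -0.039, 0.43 and 0.38 for same-numbered libraries and ran from -0.44 to 0.23 for the others, too few values to decide. Every positive correlation was between libraries alike in holding or lacking atrial transcripts, and every negative one was between unlike libraries. With the replicate number as a block 22 genes and none of the members were called. The cause of these shifts was not tested.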
